A study of Rattus norvegicus with 3 samples.

Results

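Plk2, Tceal7 and Myo5c were described in single nuclei of the rat heart apex, a piece of tissue with parts of the septum and of both ventricles. The 3 genes were chosen by their levels in cardiomyocyte nuclei of both dystrophin-deficient genotypes against WT, and 3 of 3 were found among the 22250 genes of the deposited tables. The values of that comparison therefore describe the choice and are no evidence for it. The study compared Sprague Dawley rats of 12 months of age, with 1 library per genotype and no replicates. How many animals a library holds is not given in the sources used here. WT animals were littermates with an intact Dmd gene. BMD rats, a model of Becker muscular dystrophy, carried an in-frame deletion within Dmd and made a shortened and less abundant dystrophin. DMD rats, a model of Duchenne muscular dystrophy, carried another deletion within Dmd and lacked dystrophin. Both are whole-animal deletions made by gene editing, so each cell type carried the deletion. Nuclei were sorted by a DNA stain, which selects no cell type, and unique molecular identifiers (UMIs) were counted per gene and nucleus.

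The 3 genes belong to unrelated families. Plk2 encodes polo-like kinase 2, a serine/threonine kinase of the family that controls centrosomes and cell division, and it is known as an immediate response gene to serum and to cell stress. Tceal7 belongs to an X-linked family of small proteins that resemble transcription elongation factor A, and it has been studied in developing skeletal muscle. Myo5c is a class V myosin, a motor that carries vesicles along actin filaments and is best known from glandular epithelia, while its relatives Myo5a and Myo5b serve pigment cells, neurons and recycling endosomes.

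The stretch before the annotated start of each gene is shown because the genes were chosen for a shared direction. The sequences are from RefSeq (build GRCr8, plus strand, 3 of 3 genes matched), while the counts were made on rn6, so the positions apply to GRCr8 only. Plk2 is at chr2:43702286-43702535, Tceal7 at chrX:104019834-104020015 and Myo5c at chr8:84869793-84870030. Capitals mark matches, on either strand, of the TATA box (TATAAA), the binding motif of the factor NF-Y (CCAAT), the binding motif of the factor Sp1 (GGGCGG), the E-box of bHLH factors such as Usf1 (CACGTG), the cyclic AMP response element (TGACGTCA), the motif of AP-1 factors (TGANTCA), the core of the M-CAT element of muscle genes (CATTCC), the motif of Gata factors (AGATAA or, with another start, TGATAA), the CArG box and the MEF2 box.
Plk2: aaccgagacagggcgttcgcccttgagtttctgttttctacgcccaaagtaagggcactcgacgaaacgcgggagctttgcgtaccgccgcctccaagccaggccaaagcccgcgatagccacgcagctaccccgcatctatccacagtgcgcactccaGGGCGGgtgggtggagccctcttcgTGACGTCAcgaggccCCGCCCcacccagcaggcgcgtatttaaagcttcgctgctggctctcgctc
Tceal7: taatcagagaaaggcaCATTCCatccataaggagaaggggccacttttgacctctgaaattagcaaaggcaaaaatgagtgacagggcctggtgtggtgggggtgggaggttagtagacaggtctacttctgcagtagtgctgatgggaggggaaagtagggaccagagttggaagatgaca
Myo5c: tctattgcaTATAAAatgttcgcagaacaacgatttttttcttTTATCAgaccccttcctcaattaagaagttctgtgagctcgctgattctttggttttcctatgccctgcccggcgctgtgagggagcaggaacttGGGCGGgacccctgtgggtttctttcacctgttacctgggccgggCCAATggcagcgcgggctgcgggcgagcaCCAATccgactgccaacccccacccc

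The 3 stretches differed in the motifs they held. The Plk2 window of 300 bases (250 before and 50 after the start) had TGACGTCA, the cyclic AMP response element, at 66 bases before the start, and 1.83% of 33469 RefSeq windows of this length held it. It also had GGGCGG at 91 and 51 bases before the start, a motif held by 33.1% of windows, and CCAAT at 43 bases after the start, past the stretch printed above. The Tceal7 window had CATTCC, the core of the M-CAT element of muscle genes, at 234 bases before the start (14.2% of windows). It also had CACGTG at 61 bases before the start (6.42% of windows). Positions are counted from the site 250 bases into the window, while each printed stretch stops before the annotated gene. For Tceal7 the print stops after 182 bases, so CACGTG lies past it, inside the annotated gene. The Myo5c window had CCAAT at 67 and 38 bases before the start (37.5% of windows), GGGCGG at 112 (33.1%), TATAAA at 241 (14.2%) and an AGATAA or TGATAA match at 207 (18.9%). TGANTCA (7.33% of windows), the CArG box (1.64%) and the MEF2 box (3.29%) had no match in any of the 3 windows. CANNTG, the E-box, which CACGTG also fits, was searched too and left in lower case: it matched in the Tceal7 window at 61 and in the Myo5c window at 87 bases before the start (72.1% of windows). None of the 11 motifs was held by all 3 windows. A match is a description of letters, and no binding was measured here.

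Of 24664 nuclei, 4627 formed a cluster that raised 10 cardiomyocyte markers, among them Tnnt2, Actn2, Tnni3 and Ryr2, and these are called cardiomyocyte-like below. They numbered 2029 in WT, 1531 in BMD and 1067 in DMD, with medians of 2762, 3769 and 3248 UMIs per nucleus. The members, Nppa and Nppb were left out of the genes used for clustering. Of 11 cardiomyocyte markers 10 were found, and their summed level in the cluster was 35082 counts per 1000000 UMIs (CPM) in WT, 36613 in BMD and 35317 in DMD, against 3869 to 4664 CPM in the other nuclei. The summed endothelial markers were at 116 to 205 CPM there, the macrophage markers at 18.1 to 38.4, the fibroblast markers at 185 to 460 and the pericyte or smooth muscle markers at 708 to 1023, each below their level in the other nuclei, and the part of such RNA in the results was not tested. Besides, 7 other classes had at least 50 nuclei in each library. The libraries shared 12 to 20 nuclear barcodes in pairs.

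Each gene was low in WT cardiomyocyte-like nuclei and higher in the other 2 libraries. Plk2 (ENSRNOG00000011951) gave 71, 529 and 344 UMIs in the WT, BMD and DMD libraries. These counts correspond to 11.2 CPM (95% exact Poisson interval 8.74 to 14.1), 79.4 CPM (72.8 to 86.4) and 88.7 CPM (79.5 to 98.5). All intervals here cover counting error only, not the spread between animals, and UMIs were the unit counted.

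Tceal7 (ENSRNOG00000037645) had 34, 267 and 195 UMIs, or 5.36 CPM (3.71 to 7.49) in WT, 40.1 CPM (35.4 to 45.2) in BMD and 50.3 CPM (43.5 to 57.8) in DMD. Myo5c (ENSRNOG00000008356) had 1, 315 and 65 UMIs, or 0.158 CPM (0.00399 to 0.878), 47.3 CPM (42.2 to 52.8) and 16.8 CPM (12.9 to 21.3). WT was the low library for each gene, and its interval did not overlap those of BMD and DMD. Both ratios to WT share the same WT library, so they are not independent of each other.

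The ratios that chose the genes were as follows. The log2 ratio of CPM over WT was 2.83 for Plk2 in BMD (95% interval 2.47 to 3.21) and 2.99 in DMD (2.61 to 3.38). For Tceal7 it was 2.90 for BMD (2.38 to 3.46) against 3.23 for DMD (2.70 to 3.8). For Myo5c, whose WT value rests on 1 UMI, it was 8.23 for BMD (5.74 to 13.54) against 6.73 for DMD (4.20 to 12.06). On the scale of log2 of CPM plus 5, all 3 genes passed a log2 ratio of 1 in both comparisons, which 1.54% of 8918 genes with at least 100 UMIs did in BMD, 2.05% in DMD and 0.852% (76 genes) in both. By the smaller of both ratios Plk2 took place 2, Tceal7 place 6 and Myo5c place 7 of 8918, beside Acta1 (place 1), Ccn2, Nppa and Txnip. Since the genes were selected on this contrast, nothing is read from these places.

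**Figure D1:**
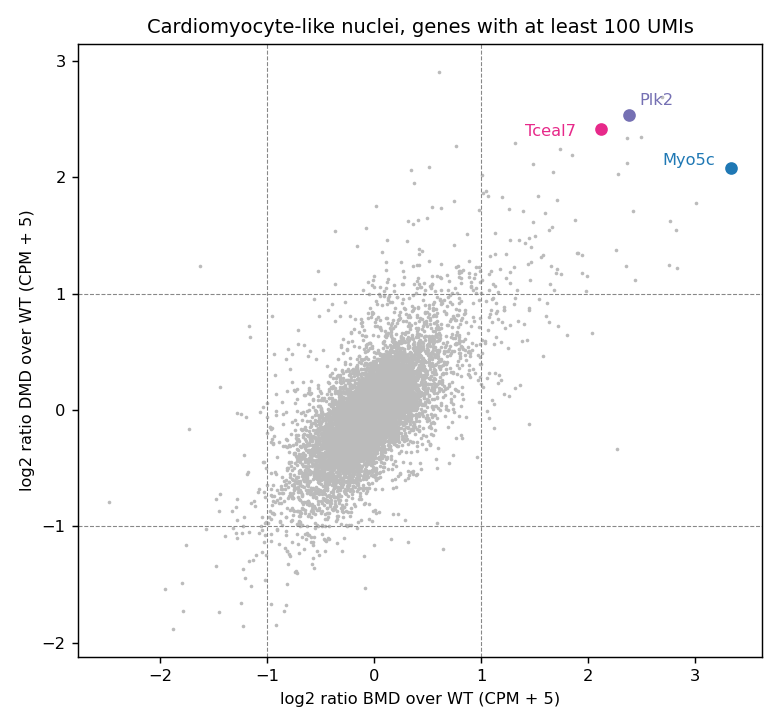
Log2 ratio to WT on CPM plus 5 for each of 8918 genes with at least 100 UMIs in cardiomyocyte-like nuclei, BMD on the x axis and DMD on the y axis, with dashed lines at 1 and -1. The 3 coloured points are Plk2, Tceal7 and Myo5c, which lie at the upper right because they were chosen there, with Myo5c the farthest along the BMD axis at 3.34 against 2.08 on the DMD axis.

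The rule did not use the contrast of DMD with BMD, and here the genes parted. Plk2 differed little, with a log2 ratio of DMD over BMD of 0.16 (-0.04 to 0.36), an interval that includes 0. Tceal7 was slightly higher in DMD by UMIs, at 0.33 (0.05 to 0.60). In DMD 10 nuclei held 36.4% of its UMIs, which this interval does not take into account. At an equal depth of 2000 UMIs, the share of nuclei with a Tceal7 UMI differed by 0.961 points (-1.14 to 3.20), which included 0. Myo5c was lower in DMD, at -1.496 (-1.90 to -1.11), so its level in DMD was 0.354 of that in BMD (0.267 to 0.464).

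The genes were seen in many nuclei of BMD and DMD. Before thinning, Plk2 was found in 2.51% of WT, 15.5% of BMD and 16.7% of DMD cardiomyocyte-like nuclei, Tceal7 in 1.43%, 9.86% and 8.53%, and Myo5c in 0.0493%, 14.6% and 5.72%. The most UMIs in 1 nucleus were 43 for Plk2 in BMD, 13 for Tceal7 in DMD and 5 for Myo5c in BMD. The 10 nuclei richest in Plk2 held 25.5% of its UMIs in BMD and 22.7% in DMD, and those richest in Myo5c held 11.4% in BMD and 21.5% in DMD. Tceal7 was more concentrated, with 22.5% in BMD and 36.4% in DMD. In WT, with fewer UMIs, the shares were 39.4% for Plk2 and 44.1% for Tceal7.

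Because WT nuclei were shallower, the shares were also taken at equal depth. Each nucleus was thinned at random to 500 UMIs, and no cardiomyocyte-like nucleus was shallower. Plk2 was then seen in 9 of 2029 WT nuclei (0.444%, exact binomial interval 0.203 to 0.840), 40 of 1531 nuclei in BMD (2.61%, 1.87 to 3.54) and 32 of 1067 in DMD (2.999%, 2.06 to 4.21). Tceal7 was seen in 0.246% (0.0801 to 0.574), 1.502% (0.955 to 2.25) and 1.69% (1.003 to 2.65). Myo5c was seen in 0 of 2029 WT nuclei, which allows a share of nuclei with a UMI of up to 0.148% (3 counts of the total, or 0.182% by the exact binomial limit), in 2.74% for BMD (1.98 to 3.69) and 1.31% for DMD (0.719 to 2.19). For each gene the WT interval lay below those of both other libraries. As the same counts chose the genes, the low WT share follows from that choice.

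Few UMIs remain at 500, so the single draw carries noise of its own. Averaged over all possible draws, the shares in WT, BMD and DMD were 0.547%, 2.99% and 3.70% for Plk2. They were 0.227%, 1.62% and 2.11% for Tceal7 and 0.00751%, 2.47% and 0.935% for Myo5c. The order of the libraries was the same in the draw and in the average for each gene. At 2000 UMIs, with 606 WT, 237 BMD and 245 DMD nuclei left out as too shallow, Plk2 was seen in 1.83%, 9.66% and 12.3% of nuclei, Tceal7 in 0.773%, 5.49% and 6.45%, and Myo5c in 0%, 8.11% and 3.53%. The difference between DMD and BMD at that depth was -4.59 percentage points for Myo5c (-6.58 to -2.51), while the intervals for Plk2 (2.63, -0.152 to 5.52) and Tceal7 (0.961, -1.14 to 3.20) included 0.

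**Figure D2:**
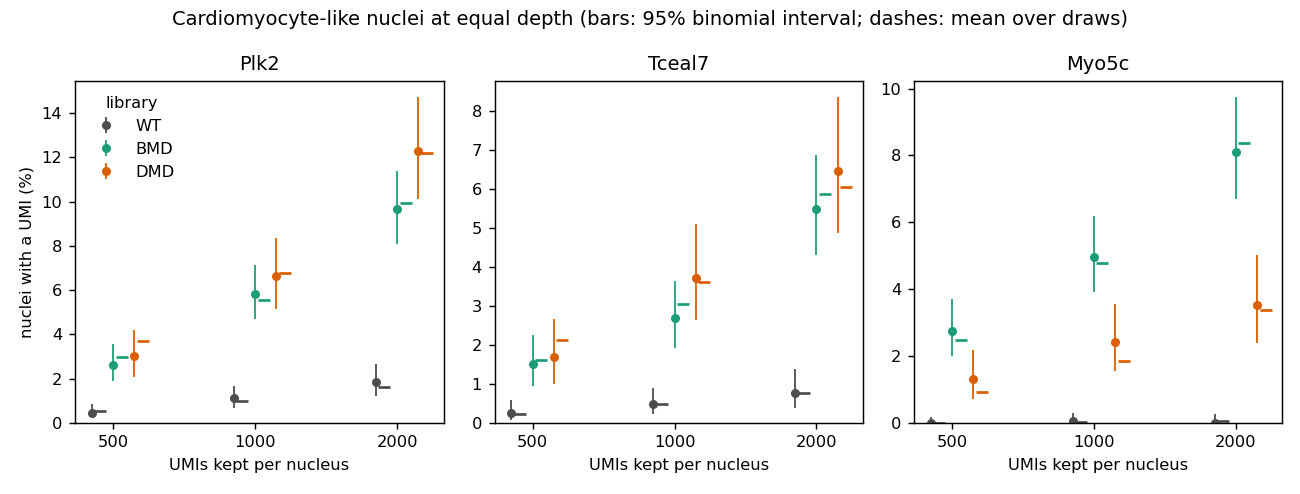
Share of cardiomyocyte-like nuclei with at least 1 UMI (y axis, percent) after thinning to 500, 1000 or 2000 UMIs per nucleus (x axis), by library. Points show the draw used with its 95% binomial interval and dashes the average over all draws; WT lies lowest in each panel, and for Myo5c DMD lies between WT and BMD.

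Depth within the cardiomyocyte-like nuclei did not alter the order either, in the same counts that chose the genes. In the shallowest of 3 depth classes (at most 2429 UMIs), Plk2 was at 14.0, 50.2 and 79.9 CPM in WT, BMD and DMD, and at 13.2, 88.2 and 101 CPM in the deepest (over 4043 UMIs). Tceal7 went from 3.69, 24.3 and 53.3 CPM in the shallowest to 7.87, 42.0 and 48.4 CPM in the deepest. Myo5c had 0 WT UMIs in the shallowest and in the deepest class, and was higher in BMD than in DMD in each, at 59.9 against 17.1 CPM and 44.7 against 14.7 CPM.

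Outside the cardiomyocyte-like nuclei, which the rule did not use, Plk2 was expressed in several classes, while Tceal7 and Myo5c had at most 12 UMIs per library in each of the 7 other classes compared. The ratios over WT in these classes are given beside those that chose the genes, with no test between them, since the cardiomyocyte-like ratios were high by choice. Plk2 was expressed most in endocardial-like nuclei, the lining of the heart chambers, at 212 CPM in WT (155 to 282), 330 for BMD (265 to 405) and 368 for DMD (313 to 430). Its log2 ratio over WT there was 0.64 for BMD (0.11 to 1.19) against 0.80 for DMD (0.32 to 1.31). Both intervals lay above 0. However, 10 endocardial-like nuclei held 50% of the Plk2 UMIs of this class in WT, 50.6% in BMD and 34.4% in DMD. The intervals do not take this into account.

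In endothelial-like nuclei of the vessels Plk2 was lower in BMD than in WT, and in DMD the interval included 0. Plk2 was at 124 CPM in WT (108 to 142), 89.1 for BMD (76.7 to 103) and 108 for DMD (95.6 to 122), a log2 ratio of -0.48 for BMD (-0.77 to -0.19) against -0.20 for DMD (-0.47 to 0.06). Plk2 did not pass a log2 ratio of 1 on CPM plus 5 in either class, a limit that 1.82% of 2250 genes passed upward in endocardial-like nuclei in BMD and 1.11% in DMD, against 0.763% and 0.725% of 7863 genes in endothelial-like nuclei.

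In WT the order of Plk2 levels was therefore endocardial-like, then endothelial-like, whose intervals did not overlap, and then macrophage-like at 23.0 CPM (15.3 to 33.3) and lymphatic-like at 21.1 (5.75 to 54.0), which overlapped. WT cardiomyocyte-like nuclei came after these, at a level that overlapped those of the lymphatic-like, the T or B cell-like and the pericyte or smooth muscle-like nuclei, and fibroblast-like nuclei were lowest at 5.58 CPM (3.68 to 8.12). In DMD the cardiomyocyte-like level of 88.7 CPM (79.5 to 98.5) was next below the endothelial-like level of 108 CPM (95.6 to 122), and in both BMD and DMD the intervals of these classes overlapped.

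Plk2 in the remaining classes rested on few UMIs. In macrophage-like nuclei it had 28, 17 and 46 UMIs in WT, BMD and DMD, with a log2 ratio over WT of -0.48 for BMD (-1.44 to 0.44) against 1.01 for DMD (0.30 to 1.75). In fibroblast-like nuclei the ratios were 0.57 (-0.29 to 1.41) and 0.77 (-0.01 to 1.56). In lymphatic-like nuclei they were 1.27 (-0.30 to 3.28) and 1.23 (-0.40 to 3.27). Of these classes, only the DMD macrophage-like value had an interval above 0. There 10 nuclei held 58.7% of the Plk2 UMIs, which this interval does not take into account.

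Tceal7 had 0 UMIs in WT endothelial-like nuclei and 4 each in BMD and DMD, or 1.96 and 1.59 CPM, against 40.1 and 50.3 CPM in cardiomyocyte-like nuclei of the same libraries. In macrophage-like nuclei it had 1, 4 and 8 UMIs, a log2 ratio over WT of 2.24 for BMD (-1.10 to 7.86) against 3.30 for DMD (0.40 to 8.77). In each of the other classes compared it had at most 2 UMIs per library. Myo5c had 0, 4 and 1 UMIs in endothelial-like nuclei and 0, 12 and 4 UMIs in macrophage-like nuclei, where its BMD level was at least 4.72-fold higher than a floor of 3 UMIs in the WT class. In the other classes compared Myo5c had at most 2 UMIs per library, so a small change there was not detectable at this depth. In fibroblast-like nuclei its upper limits were 2.49 CPM in BMD and 1.06 CPM in DMD. These lay below its cardiomyocyte-like levels of 47.3 and 16.8 CPM. In lymphatic-like nuclei of DMD the upper limit was 22.4 CPM, which did not.

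Cardiomyocyte RNA was itself present in other classes, and its level is given for comparison. The 9 cardiomyocyte markers other than Ryr2 were all above 0 in each class and library. Their summed level in macrophage-like nuclei was 12.8%, 16.8% and 14.3% of that in cardiomyocyte-like nuclei in WT, BMD and DMD. In endothelial-like nuclei it was 3.12%, 5.49% and 4.41%. On the same scale, Myo5c in macrophage-like nuclei stood at 24.6% of its cardiomyocyte-like level in BMD and 24.1% in DMD, and Tceal7 at 9.69% and 16.1%. In endothelial-like nuclei Tceal7 stood at 4.89% and 3.16%, and Myo5c at 4.14% and 2.37%. Scrublet marked 17.0%, 12.1% and 25.5% of macrophage-like nuclei as doublets in WT, BMD and DMD, and the part of stray cardiomyocyte RNA and of doublets in these values was not tested.

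**Figure D3:**
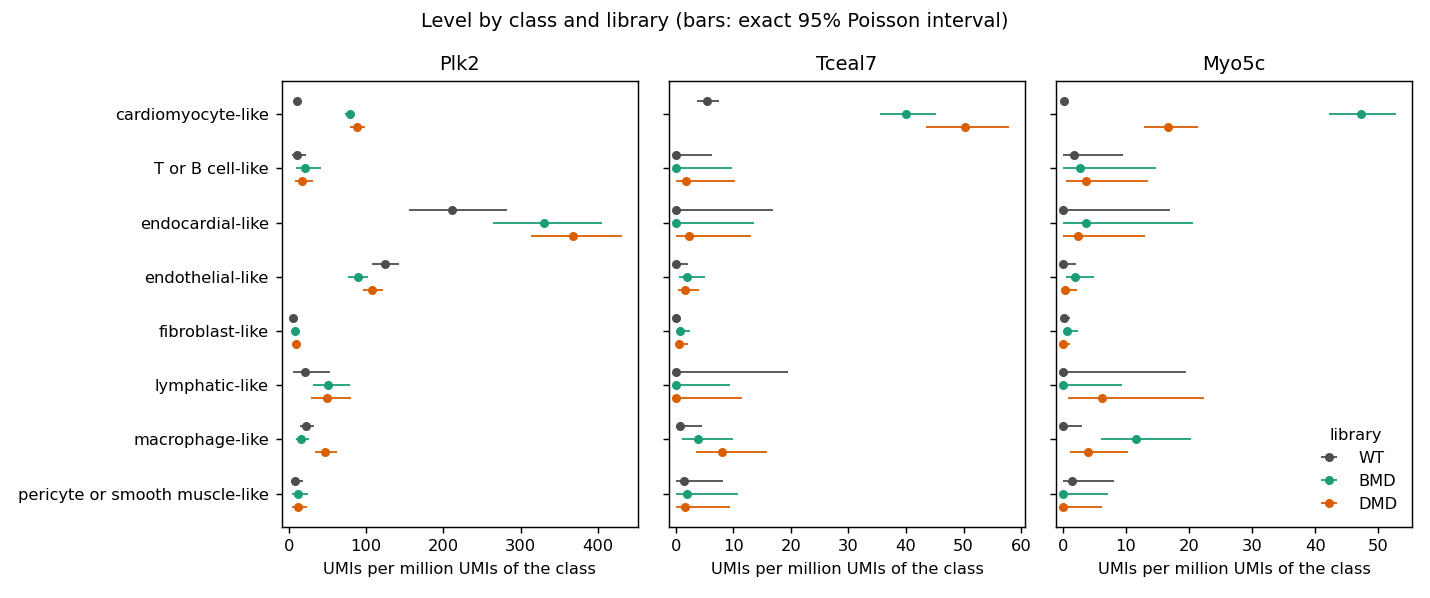
Level of each gene (x axis, UMIs per 1000000 UMIs of the class) in 8 classes of nuclei (y axis) and 3 libraries, with exact 95% Poisson intervals. Plk2 is highest in endocardial-like nuclei in each library, whereas Tceal7 and Myo5c stand out in cardiomyocyte-like nuclei of BMD and DMD.

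In the single draw at equal depth, shares did not repeat each ratio of the levels in the other classes. At 500 UMIs the share of nuclei with a Plk2 UMI differed from WT by 6.02 percentage points in endocardial-like nuclei of BMD (-0.683 to 13.01) and by 5.05 points in those of DMD (-0.905 to 10.6). In macrophage-like nuclei of DMD it differed by -0.0946 points (-1.32 to 1.28), and in fibroblast-like nuclei of DMD by 0.504 points (0.137 to 0.955). Thus, in this draw, the endocardial-like and the DMD macrophage-like differences included 0, while the DMD fibroblast-like one lay above 0. Averaged over all draws, 0.952% of WT and 1.504% of DMD macrophage-like nuclei had a Plk2 UMI, so DMD was above WT, unlike in the draw. For fibroblast-like nuclei the averages were 0.251% in WT and 0.439% in DMD. The DMD fibroblast-like difference at 1000 UMIs, with shallower nuclei left out, was 0.390 points (-0.110 to 0.975), which included 0. In endothelial-like nuclei, 7.29% of WT nuclei (6.10 to 8.62), 3.41% of BMD (2.57 to 4.42) and 5.19% of DMD (4.28 to 6.22) had a Plk2 UMI, or 6.58%, 4.28% and 5.11% averaged over all draws. In the draw the differences from WT were -3.88 points for BMD (-5.46 to -2.31) and -2.10 for DMD (-3.72 to -0.523), both below 0. At 1000 UMIs, with shallower nuclei left out, they were -3.17 (-6.59 to 0.0342) and -0.635 (-4.14 to 2.65), both including 0. Tceal7 was seen in 0%, 0.0631% and 0.0951% of endothelial-like nuclei, and Myo5c in 0%, 0.126% and 0%. The median depths of this class were 826, 1108 and 981 UMIs, and the cardiomyocyte-like shares of Tceal7 and Myo5c in BMD and DMD were above its shares. In macrophage-like nuclei, where cardiomyocyte markers were higher and the median depths were 1191, 1176 and 1232 UMIs, the share with Tceal7 was 0% in WT, 0.470% for BMD (0.0971 to 1.37) against 0.176% for DMD (0.00446 to 0.977). Myo5c was seen there in 0%, 0.313% (0.038 to 1.13) and 0.176% (0.00446 to 0.977). The BMD interval of Tceal7 and the DMD interval of Myo5c overlapped those of cardiomyocyte-like nuclei. For Plk2, endothelial-like nuclei are no background, since Plk2 is well expressed there. In fibroblast-like nuclei, 0.199%, 0.183% and 0.703% had a Plk2 UMI at 500 UMIs, below the cardiomyocyte-like share of the same library in each case.

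RNA outside nuclei carried the genes as well. In barcodes with at most 50 UMIs, Plk2 was at 39.98 CPM in WT, 120 in BMD and 100.1 in DMD, Tceal7 at 4.44, 31.5 and 24.0, and Myo5c at 0.635, 18.9 and 7.05. WT free RNA thus held a higher Plk2 level than WT cardiomyocyte-like nuclei did. With free RNA subtracted, at 1.26% to 2.14% of the UMIs of cardiomyocyte-like nuclei, each of the 6 log2 ratios over WT stayed within its interval. These shares came from fibroblast markers in WT and from monocyte or neutrophil markers in BMD and DMD. A subtraction this small could move the ratios only a little, so nothing is read from it.

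Nuclei were next divided by Nppa, the gene of atrial natriuretic peptide, which ventricular cardiomyocytes make under load. An Nppa UMI was found in 14.9% of WT, 55.0% of BMD and 53.8% of DMD cardiomyocyte-like nuclei. It was also found in 0.825%, 9.77% and 6.37% of fibroblast-like nuclei. In barcodes with at most 50 UMIs Nppa was at 151, 1308 and 893 CPM. The part of stray Nppa RNA in this division was not tested. The genes were high in BMD and DMD on both sides of this division. Both sides together hold the counts that chose the genes, so values above WT are in part given by that choice. Among nuclei without Nppa UMIs, Plk2 was at 6.80 CPM in WT (4.74 to 9.46), 36.8 for BMD (29.7 to 45.1) and 35.97 for DMD (27.2 to 46.7). Among nuclei with Nppa UMIs it was at 30.002 CPM in WT (21.0 to 41.5), 105 for BMD (95.3 to 115) and 124 for DMD (110 to 139).

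The log2 ratio of Plk2 over WT was 2.44 for BMD (1.86 to 3.04) against 2.40 for DMD (1.77 to 3.06) without Nppa, and 1.81 (1.31 to 2.34) and 2.05 (1.54 to 2.59) with Nppa. For Tceal7 it was 3.31 (2.57 to 4.13) and 3.17 (2.36 to 4.04) without Nppa, and 1.70 (0.96 to 2.53) and 2.24 (1.49 to 3.08) with Nppa. The ratios were thus larger without Nppa in value, but the interval of that difference lay above 0 only for Tceal7 in BMD, at 1.62 (0.50 to 2.72). The other 3 differences had intervals that included 0. With nuclei divided by Nppb, the gene of the related B-type peptide, the direction turned in all 4 cases in the full counts. The difference was -0.74 and -0.26 for Plk2 in BMD and DMD, and -0.28 and -0.95 for Tceal7, with intervals that included 0. With nuclei thinned to 2000 UMIs it was -0.07 and 0.49 for Plk2, and -0.97 and -1.99 for Tceal7. Those intervals included 0 too, and Plk2 in DMD did not turn.

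Myo5c had 1 UMI in WT nuclei without Nppa and 0 in WT nuclei with Nppa. Without Nppa it was at 58.0 CPM for BMD (49.0 to 68.3) against 22.5 for DMD (15.7 to 31.3), and its log2 ratio over WT was 8.22 (5.72 to 13.53) and 6.85 (4.28 to 12.20). With Nppa it was at 40.8 CPM for BMD (34.9 to 47.4) against 12.9 for DMD (8.71 to 18.4), at least 16.3-fold and 5.17-fold higher than a floor of 3 UMIs in the WT nuclei with Nppa.

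**Figure D4:**
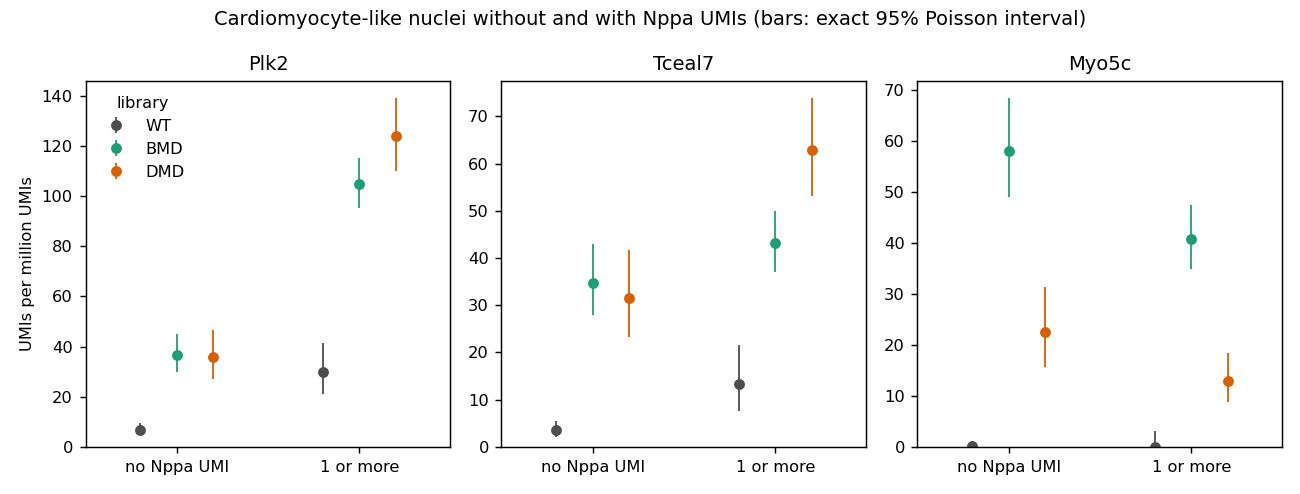
Level of each gene (y axis, UMIs per 1000000 UMIs) in cardiomyocyte-like nuclei without and with Nppa UMIs (x axis), by library, with exact 95% Poisson intervals. Plk2 is higher with Nppa in each library, Myo5c is lower with Nppa in BMD and DMD, and WT is lowest on both sides in each panel.

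Within a library the genes differed in how they went with Nppa. Plk2 was higher in nuclei with Nppa than without in each library, with a log2 ratio of 2.14 in WT (1.43 to 2.86), 1.51 for BMD (1.18 to 1.85) and 1.79 for DMD (1.37 to 2.22). Tceal7 was higher with Nppa in WT at 1.93 (0.86 to 2.99) and in DMD at 0.998 (0.522 to 1.495), and in BMD the interval of 0.31 (-0.06 to 0.70) included 0. Myo5c was lower with Nppa, at -0.51 for BMD (-0.84 to -0.18) against -0.80 for DMD (-1.55 to -0.05).

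Nuclei with Nppa UMIs were deeper, at medians of 3680, 4242 and 3544 UMIs against 2645, 3252 and 2885 without. With nuclei thinned to 2000 UMIs before the division, Plk2 had a ratio with over without Nppa of 2.01 in WT (0.82 to 3.14), 0.72 for BMD (0.27 to 1.18) and 1.44 for DMD (0.904 to 1.997). The BMD value was thus below the interval found without thinning, and all 3 were above 0. Myo5c then gave -0.45 for BMD (-0.997 to 0.087) against -0.42 for DMD (-1.58 to 0.71), so its lower level with Nppa was no longer clear of 0. The log2 ratio of Plk2 over WT was 2.80 in BMD and 2.74 in DMD without Nppa, and 1.51 and 2.17 with Nppa, each interval being above 0. The difference between both sides was then 1.29 for Plk2 in BMD (0.03 to 2.49) and 2.35 for Tceal7 in BMD (0.49 to 4.25), and in DMD both intervals included 0.

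At the finer resolution of 1.0 the cardiomyocyte-like nuclei fell into 2 clusters, one led by Dhrs7c and Myh6 with 1445 WT, 179 BMD and 221 DMD nuclei, the other led by Xirp2, Nppb and Nppa with 577, 1341 and 839. In the first, Plk2 was at 3.83, 13.01 and 46.0 CPM, and its BMD interval of the log2 ratio over WT, 1.76 (-0.05 to 3.30), included 0. Tceal7 was at 3.07, 20.8 and 23.0 CPM and Myo5c at 0.256, 49.5 and 25.3 CPM in that cluster. In the second, Plk2 was at 23.2, 83.2 and 93.2 CPM, Tceal7 at 9.11, 41.6 and 53.8, and Myo5c at 0, 46.9 and 15.8. The clusters were made from the same counts, without the members, so these values are a description.

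The number of nuclei with UMIs of a pair of the genes is set beside the product of their shares. At 2000 UMIs, 125 of 1294 BMD nuclei had Plk2, 71 had Tceal7 and 105 had Myo5c, and 8 had Plk2 with Tceal7, where the product of the shares gives 6.86. Plk2 met Myo5c in 8 nuclei, with 10.1 from the shares, and Tceal7 met Myo5c in 5, with 5.76. In DMD, Plk2 and Tceal7 met in 18 of 822 nuclei, with 6.51 from the shares, whereas Plk2 and Myo5c met in 2, with 3.56. Tceal7 and Myo5c met in 1, with 1.87 from the shares, and in WT only 1 nucleus held a pair, Plk2 with Tceal7.

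The families of the 3 genes were described by counts. Counted were list genes with at least 20 UMIs in cardiomyocyte-like nuclei, and of all 11567 such genes 1.26% were higher and 0.614% lower in BMD by a log2 ratio of 1 on CPM plus 5, with a median of -0.03, against 1.71% and 0.813% in DMD, with a median of -0.01. Of the polo-like kinases, only Plk1, a kinase of mitosis, was counted beside Plk2, at 9, 10 and 7 UMIs in WT, BMD and DMD. Plk3, Plk4 and Plk5 had at most 6 UMIs per library.

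In the Tceal and Bex family, 1 of 6 counted genes, Tceal7 itself, passed the limit upward in each comparison and 0 passed it downward, and without Tceal7 the medians were 0.33 in BMD and 0.57 in DMD. Its neighbour on the X chromosome, Tceal9, had 48, 109 and 53 UMIs, with log2 ratios of CPM over WT of 1.11 (0.61 to 1.63) and 0.85 (0.26 to 1.45). Tceal8 had 54, 86 and 77 UMIs, at 0.60 (0.09 to 1.12) and 1.22 (0.70 to 1.75). Tceal5, also close by, had 1, 10 and 11 UMIs, at 3.25 (0.44 to 8.69) and 4.17 (1.39 to 9.60). How many of all genes had intervals above 0 in both comparisons was not counted, so no rise of the family is read from these values. Tceal1 and Bex3 had intervals that included 0 in both comparisons, and Tceal3, Tceal6, Bex2 and Bex4 had 0 UMIs. How the counting treated reads that match several of these similar small genes was not examined.

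The class V myosins split. Myo5b, a motor of recycling endosomes, was at 57.4 CPM in WT, 38.4 in BMD and 26.3 in DMD, a log2 ratio of -0.58 (-0.82 to -0.34) and -1.13 (-1.46 to -0.81). Myo5a, which lies next to Myo5c on chromosome 8, was at 26.0, 24.2 and 27.8 CPM with both intervals including 0, and so did Gnb5 on the other side of Myo5c, at 15.8, 16.8 and 16.5 CPM. Of 12 counted class V myosins and Rab partners, 1, Myo5c, was higher in each comparison and 0 were lower, with medians of 0.02 and 0.07. Rab27a, a GTPase that links vesicles to myosin V, was at 31.5, 24.0 and 20.9 CPM. Among other unconventional myosins, Myo10, a motor of filopodia, was at 85.6, 56.1 and 44.1 CPM, and Myo19, a mitochondrial motor, at 229, 187 and 192.

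Plk2 is known as a target of p53, and 2 of 15 counted p53 target genes were higher in BMD and 0 in DMD, with 0 lower in either and medians of 0.22 and 0.00. Btg2, an antiproliferative gene, was at 58.8, 154 and 120 CPM, Gadd45a, a gene of growth arrest, at 13.4, 59.4 and 23.7, and Eda2r, a receptor of the TNF family, at 6.78, 13.8 and 16.0. These were named by size and equal sign in both comparisons. Chosen after their values were seen, 3 others had DMD intervals below 0: Cdkn1a, the cell cycle inhibitor p21, at a log2 ratio of CPM of -1.36 (-1.97 to -0.78), Bax, an apoptosis effector, at -1.14 (-1.93 to -0.41) and Ccng1, cyclin G1, at -0.39 (-0.62 to -0.17). In BMD their ratios were 0.70 (0.38 to 1.03), -0.15 (-0.65 to 0.35) and 0.11 (-0.06 to 0.28). How many of all genes had DMD intervals below 0 was not counted, so these values are a description only.

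Genes of cardiomyocyte stress were higher in most cases. Of 8, 6 were higher in BMD and 5 in DMD, with 0 lower and medians of 1.96 and 1.63. Acta1, skeletal actin, was at 32.5, 237 and 237 CPM, Ccn2, a matricellular factor, at 82.3, 488 and 440, and Nppa at 170, 898 and 881. Myogenic regulators did not share this: of 4 counted, 0 were higher, and 0 in BMD and 1 in DMD were lower. Mef2c, a transcription factor of muscle, was at 654, 431 and 295 CPM, Mef2b at 6.62, 2.70 and 2.06, and Mef2a at 559, 462 and 457, and Mef2c was the lower one. The other 5 listed had at most 2 UMIs per library. Of 3 counted fast skeletal muscle genes, 0 passed the limit, and Mybpc2, a myosin-binding protein, was at 7.09, 14.1 and 12.6 CPM.

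The genes most alike over 24 points, 8 classes in 3 libraries, were found by Pearson correlation of log2 of CPM plus 5 among genes with at least 100 UMIs in cardiomyocyte-like nuclei. The points share libraries and classes, so the values are descriptive. They also include the cardiomyocyte-like points on which the genes were chosen. Tceal7 and Myo5c had few UMIs in the other classes, so their values rest largely on those chosen points. Tceal7 was most like AABR07016779.1 (0.91), Sypl2 (0.91) and Phlda1 (0.89), and Myo5c most like B3galt2 (0.85), Nmrk2 (0.83) and Gng7 (0.81). Plk2 was most like Psen2 (0.91), Csrp2 (0.90) and Pgm5 (0.89). Tceal7 and Myo5c correlated at 0.80 with each other, and Plk2 at 0.16 with Tceal7 and 0.23 with Myo5c, Plk2 being the one with high levels in endocardial-like and endothelial-like nuclei. The neighbours of Plk2 on chromosome 2 that were found (Rab3c, Gapt and Actbl2) had at most 6 UMIs per library.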

How the data were processed

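The authors aligned reads of a 10x Genomics 3′ v3.1 kit to rn6, per the labels, with Cell Ranger, and deposited raw UMI counts for all barcodes. The headers name version 6.0.1 for the WT table and 4 for BMD and DMD. The study's results section names a 5′ technology. The WT table is an aggregate of the 3 libraries, in which BMD and DMD kept 76.1% and 92.9% of their UMIs, so WT was taken from its WT barcodes, and BMD and DMD from their own files. Counting differences between WT and the others cannot be told apart from genotype. The WT, BMD and DMD totals were 21609238, 21142346 and 19215994 UMIs.

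Nuclei were the barcodes richest in UMIs, as many per library as the study states. The shallowest had 513 to 546 UMIs. Doublets were kept in, as no doublet step is described. Nuclei were clustered with scanpy 1.11.5 (2000 variable genes, 30 components, 15 neighbours, Leiden 0.5), without 11 genes (the members and named cardiomyocyte genes) and without mitochondrial and sex-linked marker genes. A cluster was named from 3 or more markers at 2-fold. UMIs were summed per class and library and scaled to counts per 1000000 (CPM). With 1 library per genotype no test was run. Intervals are exact Poisson, Clopper-Pearson or conditional binomial at 95% (scipy 1.17.1), and those of differences combine the single limits. A zero is set against 3 UMIs. A ranked gene needed 100 UMIs and a list gene 20, with at most 3 genes named per list, those of largest nearer-0 ratio of equal sign, and the families of the members in full. TMM factors came from edgeR 4.0.16. The functions were tested on simulated data. The members and lists were chosen with earlier results of these data known, and the motifs after the sequences had been seen. The alternatives are those of the section on processing. The count over the list of other unconventional myosins is not reported here.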

Additional observations from a re-analysis of the deposited data

Results flagged for a closer look

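Plk2 in endothelial-like nuclei was flagged for going the opposite way from cardiomyocyte-like nuclei, where its ratio was high by choice. Its endothelial-like values were a log2 ratio over WT of -0.48 in BMD and -0.20 in DMD. The DMD interval (-0.47 to 0.06) included 0. On CPM plus 5, 6989 of 7863 genes of this class lay above Plk2 in BMD and 6090 in DMD, and the others did not. Macrophage-like nuclei also had a negative value in BMD, -0.48, with an interval that included 0. With 1 library per genotype these differences were not tested.

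Barcodes with at most 50 UMIs, which enter no comparison of nuclei, held more of each gene in BMD and DMD than in WT. Plk2 was at 120 CPM in BMD and 100.1 CPM in DMD, Tceal7 at 31.5 and 24.0 CPM, and Myo5c at 18.9 and 7.05 CPM. The log2 ratios over WT were 1.58 and 1.32 for Plk2, 2.83 and 2.43 for Tceal7, and 4.90 and 3.47 for Myo5c, with intervals above 0. Tceal7 rested on 7, 20 and 17 UMIs in WT, BMD and DMD, and Myo5c on 1, 12 and 5. The Myo5c intervals were therefore wide, at 2.14 to 10.3 in BMD and 0.31 to 9.04 in DMD.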

How the results depend on the processing

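With 1 library per genotype, leaving out a replicate was not possible. No paired analysis was possible because each genotype has 1 library. Of 168 values under 16 alternatives, 143 stayed within the interval of the reported value and 25 lay outside it. A change of sign was counted only where that interval excluded 0, and 0 were found. All but the 24 values of other classes are contrasts with WT in cardiomyocyte-like nuclei, whose direction was given by the choice of the genes. Over all nuclei, where endothelial-like Plk2 enters, the log2 ratio of Plk2 over WT was 1.29 in BMD and 1.48 in DMD; the other values of the cardiomyocyte-like ratios and the 24 of other classes stayed inside. Shares rise with depth, so at 1000 UMIs the differences from WT in percentage points were 4.74 and 5.52 for Plk2 in BMD and DMD, 2.21 and 3.24 for Tceal7, and 4.91 and 2.36 for Myo5c, and without thinning 12.97, 14.2, 8.43, 7.10, 14.6 and 5.67. Each setting drew anew at 500 UMIs, which gave 3.41 (Plk2, BMD) and 1.63 (Myo5c, BMD) with barcodes of at least 500 UMIs, 2.75 (Tceal7, DMD) and 0.408 (Myo5c, DMD) with at least 1000, 1.93 (Myo5c, BMD) without doublets and 4.43 (Plk2, DMD) with the thinned counts of the aggregate. Averaged over all draws, an alternative chosen after seeing the data, the differences under these settings ranged from 2.40 to 2.59 (Plk2, BMD), 3.09 to 3.30 (Plk2, DMD), 2.45 to 2.58 (Myo5c, BMD) and 0.877 to 0.973 (Myo5c, DMD). Divided by Nppb instead of Nppa, the log2 ratios over WT with the UMI were 2.66 and 2.80 for Plk2 in BMD and DMD and 2.87 and 3.28 for Tceal7, and Tceal7 without it was at 2.33 in DMD; the cause was not tested. Myo5c without Nppa had 0 WT UMIs at 2000 UMIs and gave no ratio. Leiden 1.0, retained clustering genes, removal of nuclei over 5% mitochondrial UMIs, TMM and the mean over nuclei moved no value outside its interval unless named.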

Other observations

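A cluster of 517 nuclei was given no name, and of all 689 unnamed nuclei Scrublet marked 76.9% of WT, 57.7% of BMD and 75.6% of DMD as doublets. It had 24, 29 and 48 Plk2 UMIs in WT, BMD and DMD, at 20.8, 48.7 and 73.3 CPM. Tceal7 was at 2.60, 36.9 and 51.9 CPM, and Myo5c at 0, 36.9 and 7.64 CPM, with Tnnt2, a cardiac troponin, at 2651, 2925 and 2744 CPM.

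Monocyte or neutrophil-like nuclei, 34, 36 and 262 in the WT, BMD and DMD libraries, were too few to compare, and in DMD they had 22 Plk2, 5 Tceal7 and 0 Myo5c UMIs. Schwann-like nuclei had at most 1 Plk2 UMI per library and 0 of the other genes.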
